A study of Mus musculus with 9 samples.

Results

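The genes described are 35 platelet and megakaryocyte genes chosen by name for their roles as platelet surface receptors, granule proteins and signaling proteins. Of these, 32 had a probe set that the array annotation gives to that gene alone, out of 18194 genes measured in this way. Gp1ba, Serpine2 and Ptgs1 had no such probe set in the annotation used and were not analysed here. The values came from blood of 9 C57BL/6 mice aged 8 to 9 weeks and weighing 25 g on average, with 3 animals per group and 1 array per animal. Ctrl mice were not manipulated and were bled once anesthesia had been induced. PT (polytrauma) mice were injured in 3 body regions. The femur was broken under closed skin and the tissue around it hurt, the chest was injured bluntly on both sides, and the brain was injured as well. Their blood was taken 4 h after trauma. PT+HS mice received the same injuries and were additionally bled from 1 h after trauma to a mean arterial pressure of 30 mmHg, which was held for 60 min (hemorrhagic shock, HS). They were then infused over 30 min with 4 times the drawn volume, with norepinephrine as needed, and sampled at 4 h as well. Both injured groups had sevoflurane anesthesia, buprenorphine and catheters. The effect of these measures cannot be told apart from that of the injuries in a comparison with Ctrl.

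Platelets are fragments without a nucleus that megakaryocytes shed into the blood, and they carry messenger RNA made by the parent cell. At a wound they bind von Willebrand factor and collagen, take up signals from ADP, thromboxane and thrombin, release their granules and link to each other through fibrinogen. Blood was drawn into a lysing tube without a separation of cells, so that platelet RNA was part of each sample. In such bulk RNA, fewer platelets and less RNA per platelet cannot be told apart, and each value is relative to the RNA of all other blood cells.

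Platelet RNA was plainly present in each of the 9 animals. The values are log2 intensities, in which a difference of 1 is a doubling. The 10 defining platelet markers had a mean log2 value of 10.31, 10.33 and 10.07 in the Ctrl mice, 9.89, 9.65 and 9.88 in the PT mice and 10.15, 9.96 and 10.21 in the PT+HS mice, where the median gene on the array lay at 4.29. The Ctrl and PT ranges of this mean did not overlap. The PT+HS range overlapped the Ctrl range and lay just above the PT range. Of the 32 genes, 29 lay above the median gene. Itga2, P2ry1 and Slc35d3 lay below it, so that little can be read from their small differences. The second PT array stood apart from the other arrays over all genes, with correlations of 0.900 to 0.944 with them, and it was the lowest of the 9 arrays for 18 of the 32 genes. The counts and medians that rest on the PT group are therefore also given without it.

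Platelet genes were lower in PT than in Ctrl mice. The mean was lower for 31 of 32 genes, F13a1 being the exception, and the median difference was -0.44 on the log2 scale, or -26.1%. Over all 18194 genes the median difference was -0.00025, with 50.1% of genes lower, and over the 9097 genes brighter than the median gene it was -0.05, with 56.6% lower. Without the second PT array, 28 of 32 genes were lower and the median was -0.29. The thresholds of the study were a 1.5-fold change together with p under 0.05, unadjusted. At these, 6 genes fell (Gp5, Gp6, Mmrn1, Rab27b, P2ry12 and Alox12) and 0 rose, by limma. The methods' test, a comparison of both groups alone without moderation, called 3 of them (Alox12, Gp5 and Gp6) and not Mmrn1, Rab27b or P2ry12. That test called 293 of all genes. By limma, 2.26% of all genes were lower and 1.41% were higher at these thresholds. After Benjamini-Hochberg adjustment over all genes, limma called 0 of the 32, beside 0% of all genes, with a smallest adjusted p among the 32 of 0.594. At an unadjusted p under 0.05 regardless of fold, 13 of the 32 genes passed in limma, all of them lower, beside 5.82% of all genes. This count was 7 without the second PT array. In 16 genes every PT array lay below every Ctrl array, a pattern found for 5.12% of all genes, and in 0 genes above. With the second PT array left out, a less demanding comparison, these counts were 18 and 1. The shares of all genes without that array are not given for these counts or for the 7 above. The 3 counts are therefore not set against a background.

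**Figure D1:**
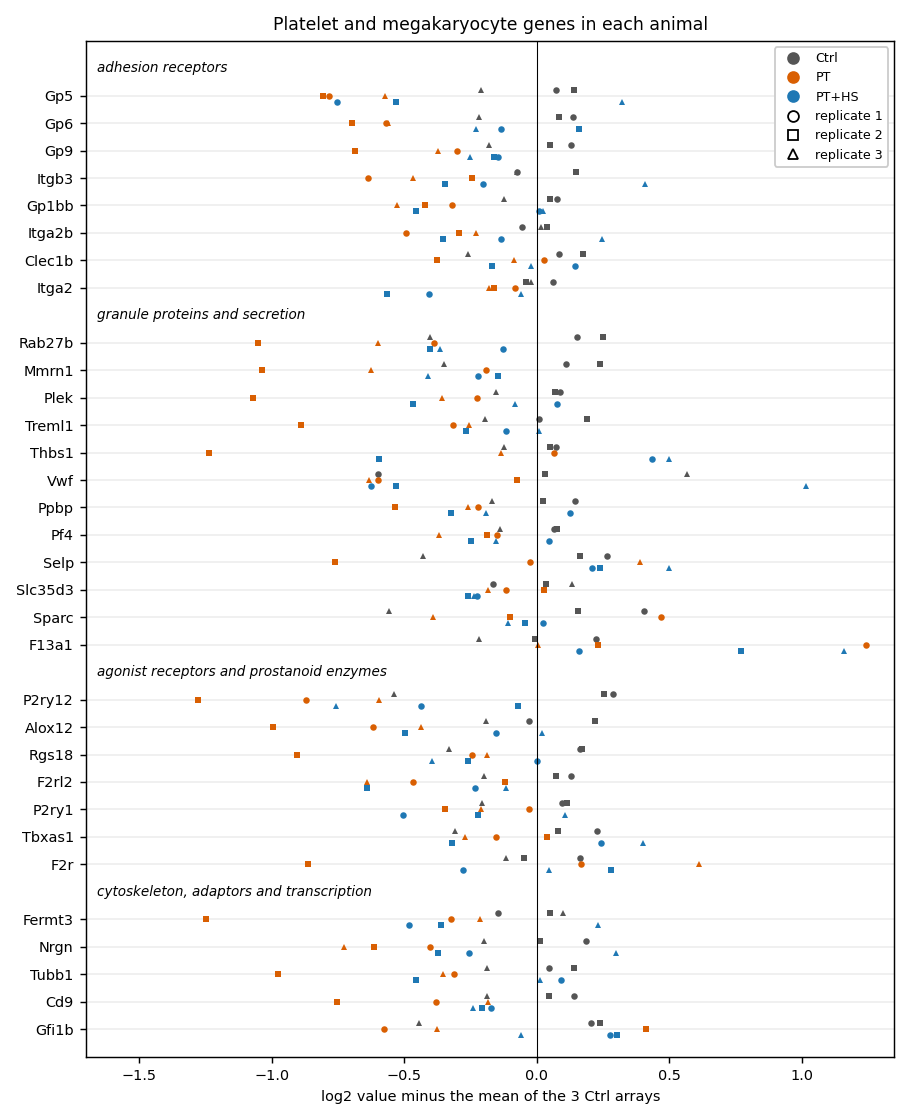
Log2 value of each of the 32 platelet genes in each animal, relative to the mean of the 3 Ctrl arrays, grouped by role (x axis, log2 units). Marker color gives the group and marker shape the replicate number. Orange PT markers lie mostly left of the line at 0, the second PT array (square) is the lowest of all 9 arrays in 18 genes, and F13a1 is the gene whose PT mean lies to the right.

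The difference was smaller between PT+HS and Ctrl. Here 26 genes were lower and 6 higher, and the median difference was -0.13, beside -0.01 over all genes. Of all genes 52.6% were lower, and of the 9097 brighter genes 56.2%, with a median of -0.04. By limma 0 of 32 genes passed the thresholds, where 1.29% of all genes were lower and 1.99% higher. The smallest adjusted p among the 32 was 0.999, with 0.00550% of all genes called after adjustment, and 0 of the 32 had an unadjusted p under 0.05, beside 4.86% of all genes. The methods' test also called 0, beside 542 of all genes. Only Itga2 and Slc35d3 had all PT+HS arrays below all Ctrl arrays, beside 6.68% of all genes, and both are among the 3 dim genes.

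Between PT+HS and PT, which differ in the hemorrhage and its treatment, 28 genes were higher in PT+HS. The median difference was 0.32, or 24.7%, beside -0.0031 over all genes, of which 49.3% were higher. Over the 9097 brighter genes the median was 0.02, with 53.7% higher. No call was made in this comparison, with 0 of 32 genes past the thresholds by limma, 0 by the methods' test and a smallest adjusted p of 0.99997. Over all genes, limma called 0.726% higher and 0.396% lower at the thresholds and 0% after adjustment, and the methods' test called 76 genes. Gp6 and Alox12 had an unadjusted p under 0.05, 2 of 32 genes beside 2.87% of all genes, which is no result about the platelet genes. In Gp9, Gp6 and Nrgn every PT+HS array lay above every PT array, which held for 3.61% of all genes. In Slc35d3, which is dimmer than the median gene, every PT+HS array lay below every PT array. The share of all genes in that lower direction is not given, so Slc35d3 is not set against a background. Without the second PT array the median was 0.15 and 26 genes were higher. In that setting 1 of the 32 (Gfi1b) passed the thresholds, beside 855 of all 18194 genes, which is no result about the platelet genes. Of other cells, monocyte, NK cell and neutrophil markers were also mostly higher in PT+HS than PT. They numbered 7 of 7 (median 0.60, 2 called), 9 of 9 (median 0.32, 1 called) and 7 of 9 (median 0.28, 0 called). With the second PT array left out they numbered 7 of 7 (median 0.75), 6 of 9 (median 0.20) and 4 of 9 (median -0.10). The calls were then 5 monocyte markers higher, 1 NK cell marker (Klrd1) lower and 0 neutrophil markers. Lower instead were 6 of 8 T cell markers (median -0.19) and 7 of 9 B cell markers (median -0.16). So were 6 of 7 red cell precursor and 6 of 10 endothelial markers, with 0 calls in these lists. Without the second PT array 7 of 8 T cell (median -0.86, 4 called) and 9 of 9 B cell markers (median -0.57) were lower. Red cell precursor and endothelial markers were then mostly higher, 6 of 7 and 6 of 10. Their part in the platelet values was not tested. Both comparisons with Ctrl share the same 3 Ctrl arrays, and both comparisons with PT share the same 3 PT arrays.

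In 22 of the 32 genes the group means ran from PT, the lowest, through PT+HS to Ctrl, the highest. In F2r, Gfi1b, Selp, Tbxas1 and Thbs1 the PT mean was lowest and the PT+HS mean highest. In Itga2, P2ry1, Slc35d3 and Sparc the PT+HS mean was lowest and the Ctrl mean highest. F13a1 alone had its lowest mean in Ctrl. The order from PT through PT+HS to Ctrl held for 21 genes without the second PT array.

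**Figure D2:**
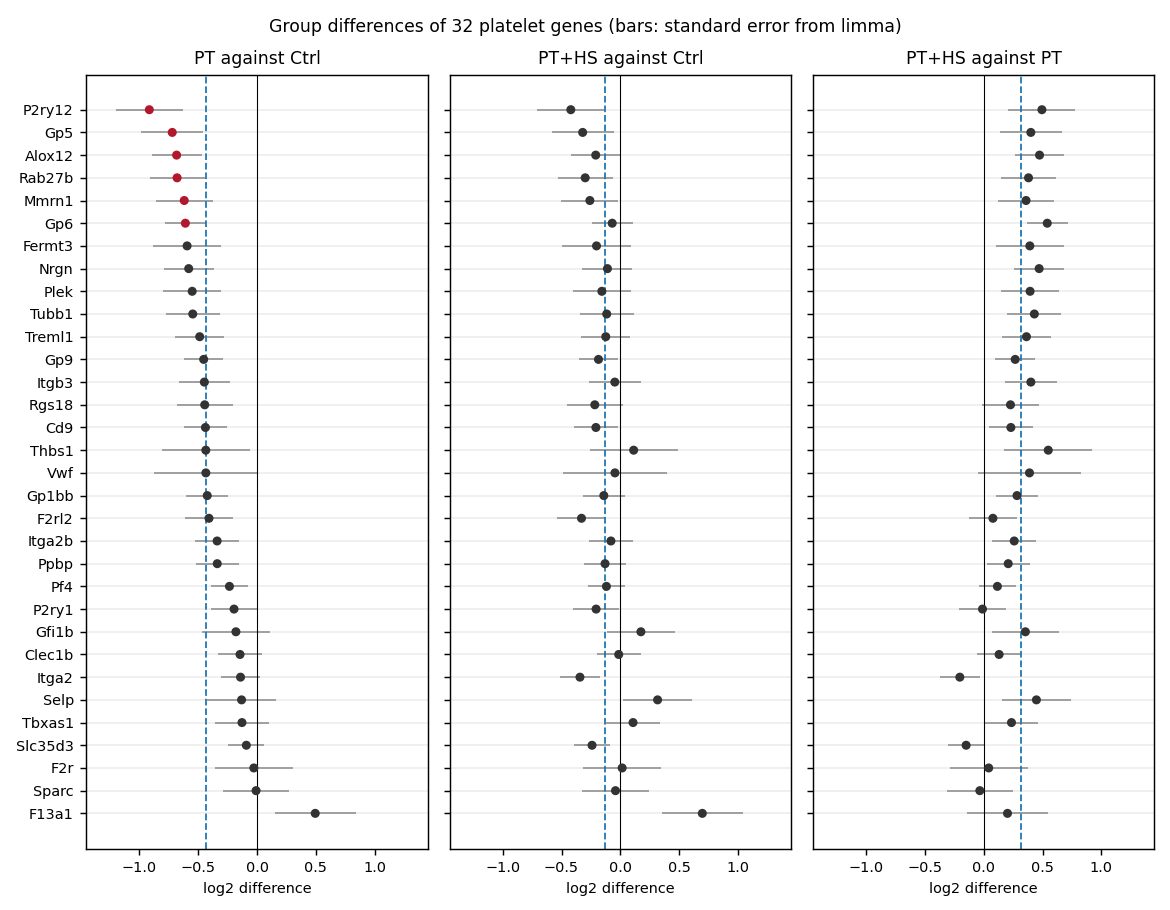
Log2 difference of group means with its standard error (limma, 3 animals per group) for the 32 genes in the 3 comparisons (x axis, log2 units), ordered by the difference between PT and Ctrl. Red points passed an unadjusted p under 0.05 and 1.5-fold, and the dashed line is the median, -0.44, -0.13 and 0.32 from left to right. The 6 red points all lie in the left panel.

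For 3 of the 6 genes called lower in PT, the 250 bases before the RefSeq start (GRCm38.p6, strand of the gene) are shown. They show the sequence before genes whose RNA differed, and the choice of these 3 followed no stated rule. GATA and ETS factors are known regulators of megakaryocyte genes. Capitals mark the letters searched on both strands, AGATAA or AGATAG or TGATAA or TGATAG for GATA and CGGAAG or AGGAAG or CGGAAA or AGGAAA for ETS. Gp5 lies at chr16:30310782-30311031 on the minus strand, P2ry12 at chr3:59262986-59263235 on the minus strand and Mmrn1 at chr6:60944067-60944316 on the plus strand.
Gp5: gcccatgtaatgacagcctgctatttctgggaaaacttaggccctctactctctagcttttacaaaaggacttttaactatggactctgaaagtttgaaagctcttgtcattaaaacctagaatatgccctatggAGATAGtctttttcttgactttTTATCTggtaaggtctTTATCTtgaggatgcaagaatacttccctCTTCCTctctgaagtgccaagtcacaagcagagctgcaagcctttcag
P2ry12: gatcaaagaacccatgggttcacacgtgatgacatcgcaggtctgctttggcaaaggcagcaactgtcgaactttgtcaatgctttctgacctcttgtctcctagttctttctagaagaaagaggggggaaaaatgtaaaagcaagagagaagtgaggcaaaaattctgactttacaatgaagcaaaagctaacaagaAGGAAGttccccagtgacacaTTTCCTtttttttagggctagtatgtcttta
Mmrn1: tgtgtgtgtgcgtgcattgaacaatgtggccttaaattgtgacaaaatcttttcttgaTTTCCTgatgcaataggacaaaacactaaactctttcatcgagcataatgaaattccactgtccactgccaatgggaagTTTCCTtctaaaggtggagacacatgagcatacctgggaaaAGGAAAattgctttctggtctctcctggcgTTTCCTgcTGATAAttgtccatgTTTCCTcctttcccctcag
The window of Gp5 held 3 GATA and 1 ETS match, that of P2ry12 held 0 GATA and 2 ETS matches and that of Mmrn1 held 1 GATA and 5 ETS matches, and no GATA match overlapped an ETS match in them. Among the measured genes, 27 had a promoter in the RefSeq table, 28 promoters in all, of which 25.0% held a GATA match and 71.4% an ETS match. Among all 32851 promoters of the table the shares were 26.5% and 57.2%. Of the members searched, Mmrn1 held the most ETS matches, and Gp5 and Gp1ba held the most GATA matches. Of the other genes called lower in PT, Gp6 held 1 GATA and 1 ETS match and Alox12 held 0 of each. The measured genes Itgb3, Vwf, Rgs18 and Thbs1 have no entry in the table, and Rab27b was not searched. A match describes letters and not a bound site.

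The adhesion receptors hold platelets to the vessel wall and to each other. All 8 measured members were lower in PT, by a median of -0.44 (-0.39 without the second PT array), and 7 had no overlap with Ctrl, but only Gp5 and Gp6 passed the thresholds. Gp5, a subunit of the von Willebrand factor receptor, measured 9.87, 9.94 and 9.59 in Ctrl, 9.01, 8.99 and 9.23 in PT and 9.05, 9.27 and 10.12 in PT+HS. All PT arrays lay below all Ctrl arrays, while the third PT+HS array was the highest of the 9 and the first lay among the PT values. The difference between PT and Ctrl was -0.72 (SE 0.26, adjusted p = 0.767 by limma), and its promoter letters are those shown above. Gp6, the collagen receptor that signals through the Fc receptor gamma chain, measured 6.90, 6.85 and 6.54 in Ctrl, 6.19, 6.07 and 6.20 in PT and 6.63, 6.92 and 6.53 in PT+HS. The PT arrays lay together below all 6 other arrays. PT was lower than Ctrl by -0.61 on the log2 scale (SE 0.17, adjusted p = 0.594 by limma), and PT+HS was higher than PT by 0.54 (SE 0.17, 95% interval 0.15 to 0.93, adjusted p = 0.99997 by limma).

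The other subunits of the von Willebrand factor receptor lay in the same order. Gp9 measured 10.84, 10.76 and 10.54 in Ctrl, 10.41, 10.03 and 10.34 in PT and 10.57, 10.55 and 10.46 in PT+HS. For Gp9 the PT arrays overlapped neither of the other groups, with a difference of -0.45 (SE 0.17) from Ctrl and 0.27 (SE 0.17) from PT to PT+HS. Gp1bb measured 10.55, 10.52 and 10.35 in Ctrl, 10.15, 10.05 and 9.94 in PT and 10.48, 10.02 and 10.50 in PT+HS, with 1 PT+HS animal among the PT values. Its difference between PT and Ctrl was -0.42 (SE 0.18), below 1.5-fold.

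Itga2b and Itgb3 encode both chains of the fibrinogen receptor. Itga2b measured 10.26, 10.36 and 10.34 in Ctrl, 9.83, 10.03 and 10.09 in PT and 10.19, 9.97 and 10.57 in PT+HS. The PT arrays lay below Ctrl by a difference of means of -0.34 (SE 0.18), and the PT+HS arrays spread from within the PT range to above the Ctrl range. Itgb3 differed by -0.45 (SE 0.22) between PT and Ctrl, also without overlap, but its second, dimmer probe set differed by -0.01. Clec1b, which encodes the podoplanin receptor, measured 11.25, 11.34 and 10.90 in Ctrl, 11.19, 10.79 and 11.08 in PT and 11.31, 10.996 and 11.14 in PT+HS. The groups overlapped for Clec1b, whose difference of -0.15 (SE 0.19) between PT and Ctrl was smaller than its error. Itga2, a chain of another collagen receptor, was at 3.58 to 4.21 in all arrays, below the median gene.

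Granule proteins are stored by the platelet and set free when it is activated. Of 12 measured members of this group 11 were lower in PT, with a median of -0.39 (9 lower and a median of -0.25 without the second PT array), and Mmrn1 and Rab27b passed the thresholds. Pf4, platelet factor 4, measured 11.82, 11.83 and 11.62 in Ctrl, 11.61, 11.57 and 11.39 in PT and 11.80, 11.51 and 11.60 in PT+HS. The highest PT array lay just below the lowest Ctrl array, and the difference was -0.23 (SE 0.16). Ppbp, the precursor of a neutrophil-attracting chemokine, measured 11.99, 11.87 and 11.68 in Ctrl, 11.63, 11.31 and 11.59 in PT and 11.97, 11.53 and 11.65 in PT+HS. The PT arrays again lay below all Ctrl arrays, by -0.34 (SE 0.18) in the mean, and the PT+HS values spread over both ranges. Both genes are neighbors on chromosome 5, with 2371 bases between them.

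Mmrn1, which encodes the granule protein that binds coagulation factor V, measured 8.50, 8.63 and 8.04 in Ctrl, 8.20, 7.35 and 7.76 in PT and 8.17, 8.24 and 7.98 in PT+HS. The groups overlapped, since the third Ctrl array lay below the first PT array. The difference between PT and Ctrl was -0.62 (SE 0.24, adjusted p = 0.803 by limma) and did not reach the thresholds without the second PT array. Rab27b, a small GTPase needed for granule release, measured 9.06, 9.16 and 8.50 in Ctrl, 8.52, 7.85 and 8.31 in PT and 8.78, 8.50 and 8.54 in PT+HS. Again the third Ctrl array lay at the level of the first PT array, and the difference was -0.68 (SE 0.23, adjusted p = 0.733 by limma). Rab27b did not pass either once the second PT array was left out. The 3 other probe sets of Rab27b were all lower in PT, by -0.99, -1.02 and -0.35, whereas the second probe set of Mmrn1, near the bottom of the scale, differed by -0.06.

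Treml1, a receptor kept in alpha granules, measured 8.43, 8.61 and 8.22 in Ctrl, 8.10, 7.53 and 8.16 in PT and 8.30, 8.15 and 8.43 in PT+HS. The PT arrays did not overlap Ctrl, and the difference was -0.49 (SE 0.21). Plek, a protein kinase C substrate of platelets and leukocytes, likewise had no overlap, at -0.55 (SE 0.24). Its other probe sets differed by -0.37 and -0.79, the latter past the thresholds when tested as a single probe set. Thbs1, Vwf, Selp and Sparc, which encode adhesive and matrix proteins of the alpha granule, overlapped between PT and Ctrl. Their differences were -0.44, -0.44, -0.13 and -0.01, with standard errors of 0.28 to 0.44. The second, dimmer probe set of Thbs1 differed by -0.06, and the other probe sets of Selp by -0.27 and -0.38. Those of Sparc went the other way, by 0.12 and 0.26, and Sparc itself, at a mean of 4.31, lay close to the median gene. Endothelial cells also make von Willebrand factor and P-selectin. The 10 endothelial markers had a mean of 3.87 to 4.07 in Ctrl, 3.88 to 4.47 in PT and 4.02 to 4.12 in PT+HS, with 4 of the 10 above the median gene, and their part in the Vwf and Selp values was not tested. Slc35d3, a dense granule gene, was between 2.42 and 2.81 in all arrays.

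F13a1 stood apart from the rest. This gene, which encodes the A chain of the fibrin-crosslinking factor XIII and is also used by monocytes, measured 9.31, 9.08 and 8.87 in Ctrl, 10.33, 9.32 and 9.09 in PT and 9.25, 9.86 and 10.24 in PT+HS. The first PT array and the third PT+HS array were highest, and both injured groups overlapped Ctrl. The differences from Ctrl were 0.49 (SE 0.35) in PT and 0.70 (SE 0.35) in PT+HS, and neither passed the thresholds. The 7 monocyte markers measured had a mean of 7.10 to 7.48 in Ctrl, 6.20 to 7.29 in PT and 7.30 to 7.59 in PT+HS. This mean joins markers that moved in opposite directions, with log2 differences from Ctrl of -1.32 to 1.36 in PT and -0.69 to 1.64 in PT+HS. At the thresholds 1 marker was higher and 3 were lower in PT, and 1 was higher and 1 lower in PT+HS. The part of the monocyte markers in the F13a1 values was not tested.

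The agonist receptors and prostanoid enzymes pass on and make the soluble signals of platelet activation. All 7 measured members were lower in PT, with a median of -0.41 (6 lower and a median of -0.21 without the second PT array), and P2ry12 and Alox12 passed the thresholds. P2ry12, the ADP receptor that is the target of clopidogrel, measured 10.11, 10.07 and 9.28 in Ctrl, 8.95, 8.54 and 9.22 in PT and 9.38, 9.75 and 9.06 in PT+HS. All PT arrays lay below all Ctrl arrays, with the third Ctrl array close to the highest PT array. The difference of -0.92 (SE 0.28, adjusted p = 0.678 by limma), or -47.0%, was the largest among the 32 genes and passed the thresholds with any 1 of the 9 arrays left out, but not by the methods' test. In PT+HS the difference from Ctrl was -0.42 (SE 0.28), with overlap. Alox12, which encodes platelet 12-lipoxygenase, measured 10.86, 11.11 and 10.70 in Ctrl, 10.27, 9.89 and 10.45 in PT and 10.73, 10.39 and 10.91 in PT+HS. PT did not overlap Ctrl and differed by -0.68 (SE 0.21, adjusted p = 0.678 by limma), and a second probe set of the gene differed by -0.74. Alox12 did not pass the thresholds when the second PT array was left out.

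The remaining members of this role had smaller differences between PT and Ctrl. Rgs18, which limits G protein signals in platelets, differed by -0.45 (SE 0.24), and F2rl2, the thrombin receptor PAR3, by -0.41 (SE 0.21). The second, dimmer probe sets differed by -0.70 for Rgs18 and by -0.24 for F2rl2. F2r, the thrombin receptor PAR1, differed by -0.03 (SE 0.33), with 4.33 in the second PT array and 5.36 and 5.80 in the other PT arrays. Tbxas1, thromboxane synthase, which macrophages also express, differed by -0.13 (SE 0.23), and the dim ADP receptor gene P2ry1 by -0.20 (SE 0.20). The groups overlapped for these 5 genes.

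Of the cytoskeletal, adaptor and transcription factor genes, all 5 were lower in PT, with a median of -0.55 (-0.33 without the second PT array), and 0 passed the thresholds. Tubb1, the beta tubulin of the platelet's marginal band, measured 11.14, 11.24 and 10.91 in Ctrl, 10.79, 10.12 and 10.74 in PT and 11.19, 10.64 and 11.11 in PT+HS. PT did not overlap Ctrl, and the second PT array was the lowest by a wide margin. The difference was -0.55 (SE 0.23), just short of 1.5-fold. Fermt3, kindlin-3, which activates integrins in platelets and leukocytes, measured 10.54, 10.73 and 10.78 in Ctrl, 10.36, 9.44 and 10.47 in PT and 10.20, 10.32 and 10.92 in PT+HS. It was below Ctrl in all PT arrays and past 1.5-fold at -0.59 (SE 0.29), but not past the p threshold, with the second PT array far below the other PT arrays. The 3 dimmer probe sets of Fermt3 differed by -0.61 and -0.70, both past the thresholds when tested as single probe sets, and by 0.06. This last one had a mean of 4.13, below the median gene, against 8.95 and 8.56 for the others. Nrgn, a calmodulin-binding protein, had no overlap between PT and Ctrl and differed by -0.58 (SE 0.21), and Cd9, a tetraspanin of platelets and other cells, differed by -0.44 (SE 0.18) with overlap. Gfi1b, a transcription factor of megakaryocytes and red cell precursors, differed by -0.18 (SE 0.29).

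For the 10 defining markers the intervals show what these 3 animals per group could resolve. Between PT+HS and Ctrl all 10 means were lower, by -0.01 to -0.32, and each 95% interval included 0, from -0.47 to 0.24 for Pf4 to -0.91 to 0.27 for Gp5. Between PT+HS and PT all 10 means were higher, by 0.12 to 0.54, and the interval included 0 for all of them but Gp6. The range of the summed level of these 10 markers, in log2 units, was 13.92 to 14.17 in Ctrl, 13.59 to 13.84 in PT and 13.78 to 14.10 in PT+HS.

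Markers of other blood cells moved with the same groups. The summed level of 9 measured neutrophil markers was 12.03 to 12.88 in Ctrl, 12.73 to 14.04 in PT and 13.15 to 14.34 in PT+HS, with 4 of 9 higher in PT and 5 of 9 higher in PT+HS at the thresholds. That of 9 B cell markers was 11.14 to 12.10 in Ctrl, 9.02 to 11.10 in PT and 9.75 to 10.31 in PT+HS, with 8 of 9 lower in each injured group. That of 9 NK cell markers was 10.61 to 10.65 in Ctrl, 8.69 to 10.22 in PT and 9.89 to 10.41 in PT+HS, with 6 and 2 of 9 lower. Of 7 monocyte markers, 1 was higher and 3 were lower in PT, and 1 was higher and 1 lower in PT+HS, at a summed level of 10.59 to 11.01 in Ctrl, 10.11 to 11.46 in PT and 11.10 to 11.44 in PT+HS. Red cell precursor, T cell and endothelial markers had 0 calls in both comparisons by limma, and 0 at an unadjusted p under 0.05 alone, at summed levels of 14.53 to 14.83, 9.75 to 11.67 and 7.60 to 8.26 over all arrays. Without the second PT array the PT calls were 6 of 9 neutrophil markers higher, 6 of 9 B cell markers lower, 3 of 9 NK cell markers lower and 1 higher, 4 of 7 monocyte markers lower and 1 higher, and 3 of 8 T cell markers higher. Within the PT group the second array had the lowest mean of both lists, 9.65 for the platelet and 7.87 for the neutrophil markers, the latter against 9.26 and 9.22. The same array had the highest mean of the 9 arrays for the red cell precursor markers (8.64, the others 7.42 to 8.21) and the endothelial markers (4.47), and the lowest for the B, T and NK cell markers (5.44, 5.78 and 5.02). The part of the other cells in the platelet values was not tested.

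**Figure D3:**
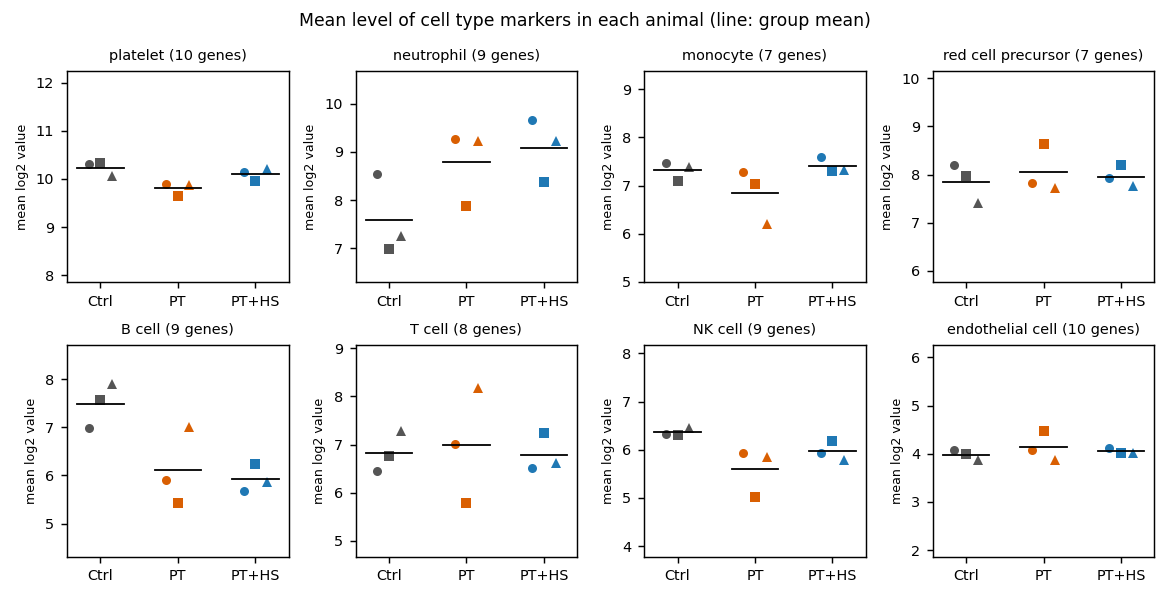
Mean log2 value of the markers of 8 cell types in each animal by group (y axis, log2 intensity, all panels spanning the same number of log2 units), with a line at the group mean and marker shape for the replicate number. The platelet panel shows 9.65 to 9.89 in PT against 10.07 to 10.33 in Ctrl, a smaller shift than that of the neutrophil or B cell panels.

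Other platelet genes, listed by role and not among the 32, gave a similar picture in the receptors and the cytoskeleton and a mixed one elsewhere. Of 17 measured surface receptors, 5 were lower and 0 higher in PT at the thresholds, with a median of -0.36. P2rx1, an ATP-gated channel, differed by -1.02 (SE 0.20), Itgb1, an integrin beta chain, by -0.71 (SE 0.22), Esam, an adhesion molecule of platelets and endothelium, by -0.61 (SE 0.14), and Cd151, a tetraspanin, by -0.60 (SE 0.19). The remaining call, chosen for naming after its value was seen, was Slc6a4, the serotonin transporter, at -0.59 (SE 0.22). From PT to PT+HS Esam rose by 0.64 (SE 0.14), the only call of the list in that comparison. Of 14 cytoskeletal genes, 6 were lower and 0 higher in PT, with a median of -0.55. Among them Mylk, myosin light chain kinase, differed by -0.92 (SE 0.25), Gsn, gelsolin, by -0.84 (SE 0.19), Myl9, myosin light chain 9, by -0.70 (SE 0.19), and Pfn1, profilin, by -0.61 (SE 0.22). Mylk also rose from PT to PT+HS, by 0.74 (SE 0.25). Without the second PT array, 3 receptors (P2rx1, Esam and, not called before, Pear1) and 3 cytoskeletal genes (Flna, Mylk and Gsn) were lower in PT, and Esam and Mylk were still called from PT to PT+HS. Many of these cytoskeletal genes are used by leukocytes as well.

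The signaling, granule and transcription factor lists had medians nearer to 0. Of 22 signaling effectors, 2 were lower and 1 higher in PT, with a median of -0.17. Leaving out the second PT array gave a median of 0.02, with Plcg2 lower and Pik3cb higher. Plcg2, a phospholipase of platelets and B cells, differed by -0.90 (SE 0.17), Rasgrp2, an activator of Rap1, by -0.61 (SE 0.23), and Pik3cb, a phosphoinositide 3-kinase, by 0.59 (SE 0.23), while Ilk, integrin-linked kinase, did not pass at -0.55 (SE 0.18). Rasgrp2 was also lower in PT+HS than in Ctrl, by -0.59 (SE 0.23). Of 18 genes of granule formation and release, with a median of -0.17, Nbeal2, required for alpha granules, fell by 0.64 (SE 0.20) and Rab27a rose by 1.25 (SE 0.25) in PT and by 1.40 (SE 0.25) in PT+HS. Rab27a, the paralog of Rab27b, is also used by neutrophils and cytotoxic lymphocytes. Of the same list Stxbp2 and Snap23, which serve membrane fusion, did not pass in PT at -0.60 (SE 0.29) and -0.64 (SE 0.33). In this list Rab27a and Lyst were higher and 0 genes, Nbeal2 included, lower in PT without the second PT array.

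Of 14 further granule cargo genes, with a median of -0.21, the growth factor genes Pdgfa at -0.74 (SE 0.25) and Angpt1 at -0.97 (SE 0.34) were lower in PT, and Pdgfa rose from PT to PT+HS by 0.63 (SE 0.25). Pros1, which encodes protein S, did not pass at -0.44 (SE 0.20), nor did Igf1, at -0.46 (SE 0.17) between PT+HS and PT. Without the second PT array, Pdgfa alone of this list was lower in PT, and its call from PT to PT+HS was lost. Of 14 transcription factor and receptor genes of megakaryocytes, with a median of -0.10, Hhex at -1.09 (SE 0.39) and Gata2 at -0.70 (SE 0.25) were lower in PT, and Fli1 at -1.11 (SE 0.50) did not pass. Gata2 rose from PT to PT+HS by 0.64 (SE 0.25). Etv6 was higher in PT+HS than in Ctrl by 0.88 (SE 0.29) and than in PT by 0.71 (SE 0.29). Hhex and Gata2 were also lower in PT without the second PT array, where the call of Gata2 from PT to PT+HS was lost and those of Etv6 held.

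**Figure D4:**
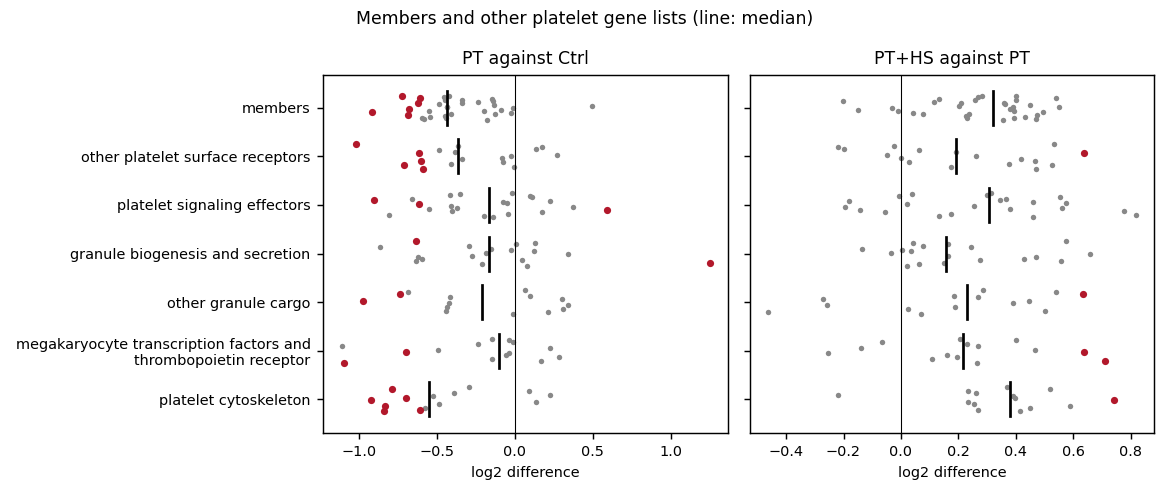
Log2 differences of single genes (points, x axis in log2 units) in the 32 members and 6 further lists of platelet genes, between PT and Ctrl (left) and between PT+HS and PT (right), with a black line at the median of each list and red points past the thresholds. The members and the cytoskeletal genes have PT medians of -0.44 and -0.55, and the transcription factor list one of -0.10.

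The number of platelet genes past the thresholds depended on single animals, while the median kept its sign. With each array left out in turn, the median difference between PT and Ctrl ran from -0.49 to -0.29, and the number of genes past the thresholds from 1 to 10. Over all 18194 genes that number also moved, from 530 to 1493. The third Ctrl array was the lowest Ctrl array in 26 of the 32 genes, and 10 genes passed without it, beside 655 of all genes. Without the first or the second Ctrl array 2 genes (Alox12 and P2ry12) and 1 gene (P2ry12) passed, and without the second PT array 2 genes (Gp5 and P2ry12) passed. The counts over all genes in these settings were 683, 530 and 1117. Between PT+HS and PT the count ran from 0 to 4, with 4 (Alox12, Nrgn, Thbs1 and Tubb1) without the second PT+HS array and 2 (Alox12 and Selp) without the third PT array. Over all genes it ran from 187 to 855, with 335 and 623 in these settings.

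**Figure D5:**
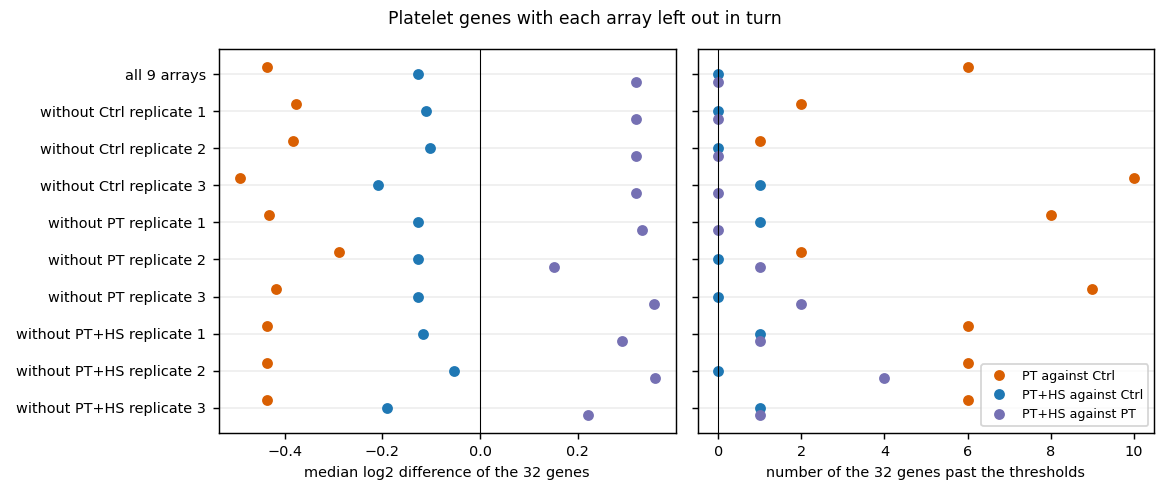
Median log2 difference of the 32 platelet genes (left) and number past the thresholds (right) with all 9 arrays and with each array left out, for the 3 comparisons (colors). The PT against Ctrl median stays between -0.49 and -0.29 while its count moves between 1 and 10, beside 530 to 1493 over all genes (not drawn).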

How the data were processed

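Blood RNA of 9 mice was measured on 1 Affymetrix array each. The authors made the deposited log2 intensities by robust multiarray average, with Expression Console and BRB-ArrayTools (no versions are stated in the sources used here). The paper names another array type than the one the probe set names belong to. Raw images were not used here. Since the arrays were set to one distribution, values are relative within an array. Out of the 45101 probe sets, those with more than one symbol (932) or without a symbol (9211) in the annotation were left out, and symbols were updated through the Entrez ID for 34754. Each gene was represented by its brightest probe set on average. Groups came from the sample labels, and the animals were the replicates, whose number limits the precision. In R 4.3.3, limma 3.58.1 was fitted to all 18194 genes with 3 group means and two-sided moderated tests, adjusted by Benjamini-Hochberg within a comparison. The thresholds were an unadjusted p under 0.05 and 1.5-fold, after the study. The fit was tested on simulated data. Values in every array are given for the defining platelet markers, for genes past the thresholds, and for genes without overlap at 1.5-fold or more. F13a1 was added after its values were seen. From each further platelet list up to 4 genes with the smallest unadjusted p were named. Members, lists and tests were chosen with earlier results of these data known. The alternatives were the methods' t-test, a 2-fold threshold, the arrays of both groups alone, a variance trend, array weights, equal medians, repeated quantile normalization, other choices of probe set, the brighter genes, a replicate block and each array left out. The further lists and the roles without the second PT array were added after the data had been seen. Promoters were taken from a RefSeq table, for the members without those on chromosome 18.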

Additional observations from a re-analysis of the deposited data

How the results depend on the processing

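The 3 medians of the 32 genes kept their sign under every alternative run. Among the other lists, the PT against Ctrl median of the signaling effectors went from -0.17 to 0.02 and that of the red cell precursor markers from 0.18 to -0.07 without the second PT array, and the PT+HS against PT median of the neutrophil markers from 0.28 to -0.10. In the latter comparison those of the red cell precursor and endothelial markers went from -0.07 to 0.17 and from -0.06 to 0.10. Between PT and Ctrl, 3 genes passed by the methods' t-test, 0 at 2-fold and 2 after repeated quantile normalization, against 6. Over all genes these counts were 293, 218 and 696, against 668. Between PT+HS and Ctrl, 1 gene (F13a1) passed with the arrays of both groups alone, beside 898 of all genes. Between PT+HS and PT, array weights gave 1 gene (Gfi1b) and a median of 0.15, against 0 and 0.32, and here the first PT array took 86.9% of the weight of its group. Over all genes array weights called 877 there, against 204. With each array left out, the counts ran from 1 to 10 between PT and Ctrl, from 0 to 1 between PT+HS and Ctrl and from 0 to 4 between PT+HS and PT. Over all genes they ran from 530 to 1493, from 486 to 831 and from 187 to 855. The medians in the same order ran from -0.49 to -0.29, from -0.21 to -0.05 and from 0.15 to 0.36. For PT+HS against Ctrl the single gene was P2ry12 without the third Ctrl array, F13a1 without the first PT or the first PT+HS array and Gp5 without the third PT+HS array. Of the 6 genes called between PT and Ctrl, P2ry12 was lost under 2 of 20 alternatives, the methods' t-test and 2-fold, and Mmrn1 under 10. The causes were not tested. With a replicate block the counts were 7, 0 and 0 in the order given, beside 743, 693 and 264 over all genes. The medians were then -0.44, -0.13 and 0.32. The deviations of same-numbered animals correlated from -0.12 to 0.48, not every animal correlated best with its own number, and the numbers were not taken to pair the animals. Between PT and Ctrl the smallest adjusted p of the 32 genes by limma was 0.0547, with array weights, and in the other alternatives it was higher. Array weights rest the PT group mainly on its first array here too, and they called 1666 of all genes, against 668. Among the 32 they called 5 genes lower, with Itgb3 added and Mmrn1 and Rab27b lost, and 1 gene (F13a1) higher.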
